A study of Mus musculus with 6 samples.

Results

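The genes of oxidative phosphorylation were compared between cultured mouse brain astrocytes that lack ADGRB1 (KO, n = 3 libraries) and wild-type astrocytes (WT, n = 3). The set holds every gene symbol of the deposited count table that begins with Ndufa, Ndufb, Ndufc, Ndufs, Ndufv, Uqcr, Atp5, Cox4i, Cox5, Cox6, Cox7 or Cox8, together with the 4 genes Sdha to Sdhd, Cyc1 and Cycs. Symbols of pseudogenes carrying -ps were to be left out, and 0 symbols were removed for that reason. This gave 94 genes of the 24318 in the table, chosen by name and not by any measured value. By symbol they comprise 38 genes of complex I, 7 assembly factors of complex I, 4 genes of complex II, 10 of complex III with cytochrome c, 18 of complex IV and 17 of complex V. Of the 94, 89 passed the filter on low counts and were tested among 14131 genes, and the other 5 are described by their counts.

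ADGRB1 is an adhesion G protein-coupled receptor, and the study was designed to find expression changes that follow its loss. Poly-A RNA of the cultured cells was sequenced in bulk. The labels give genotype, brain as the tissue and astrocytes as the cell type, but neither strain nor age, nor which part of the gene is missing. They do not say whether libraries came from separate animals or cultures, so the p-values rest on a spread between libraries that may in part be technical.

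Oxidative phosphorylation is carried out by protein complexes in the inner mitochondrial membrane. Complexes I and II pass electrons from NADH and succinate to ubiquinone, complex III passes them on to cytochrome c, and complex IV gives them to oxygen. Complexes I, III and IV pump protons, and complex V, the ATP synthase, makes ATP from the proton gradient. Astrocytes are known for a high rate of glycolysis, but they also hold the complete respiratory chain. A few core subunits of complexes I, III, IV and V are encoded in mitochondrial DNA and were not analysed here; all 94 genes are nuclear.

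KO libraries held 19251608 to 20334440 counts and WT libraries 17460086 to 18897340. Levels are given as CPM, a count relative to the library total after scaling by the TMM factors of edgeR. Adgrb1, whose gene lies at chr15:74516195-74589465 (GRCm38, plus strand), stood at 158, 140 and 117 CPM in KO libraries, against 299, 363 and 317 CPM in WT libraries. All 3 KO libraries lay below all 3 WT libraries, the direction the labels give, with a log2 fold change of -1.24 ± 0.16 (SE) and an edgeR quasi-likelihood adjusted p of 0.0684. Astrocyte markers were abundant in every library, with 8 of 8 detected and a summed level of 25185 to 28901 CPM in KO libraries and 22395 to 26407 CPM in WT libraries. Of the 8, 7 had a log2 fold change above 0, with a median of 0.19 and 0 passing adjustment. Gfap, an intermediate filament protein, stood at 1596, 925 and 724 CPM in KO libraries, against 654, 593 and 589 CPM in WT libraries (log2 fold change 0.82 ± 0.26, SE). S100b, a calcium-binding protein, stood at 477, 467 and 390.3 CPM in KO libraries, against 319, 379 and 285 CPM in WT libraries (0.44 ± 0.16, SE). The groups did not overlap for either, where 5.28% of all genes lay higher in KO without overlap. Neither passed adjustment (edgeR adjusted p = 0.65 for Gfap and 0.717 for S100b). For the other astrocyte markers the groups overlapped. Markers of other cells were present as well. The 7 markers of mature oligodendrocytes summed to 996 to 1293 CPM in KO libraries and 1874 to 2776 CPM in WT libraries. For 7 of 7 the log2 fold change was below 0 (median -1.02), where 51.9% of all genes had one above 0. The 5 markers of oligodendrocyte precursors summed to 771 to 1167 CPM in KO libraries and 1322 to 1881 CPM in WT libraries, with 5 of 5 below 0 (median -0.767). The 6 microglial markers summed to 848 to 966 CPM in KO libraries and 1026 to 1453 CPM in WT libraries, and the 6 neuronal ones to 140 to 151 CPM in KO libraries and 114 to 175 CPM in WT libraries. Since these are bulk cultures, fewer cells of a type and less RNA per cell cannot be told apart, and the part that other cells or the state of the astrocytes have in the values below was not tested.

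Promoters are shown because genes of this pathway are known targets of the transcription factors NRF1 and GABP, an ETS factor, and share short promoter motifs. RefSeq promoter sequences (GRCm38.p6) were at hand for 77 of the 94 genes, as 83 promoters. The core of the NRF1 motif, GCGCATG or its reverse complement CATGCGC, occurred in the 250 bases upstream of the start in 12 of the 83 promoters (14.5%), against 3.2% of the 32851 promoters in the reference table. The ETS core bound by GABP, CCGGAAG or CTTCCGG, occurred in 13 (15.7%), against 6.9% of all promoters. The core of the YY1 motif, AAGATGG or CCATCTT, occurred in 2 (2.4%), against 4.5% of all promoters. With the 50 bases after the start added, the shares were 19.3% against 3.9% for NRF1, 20.5% against 8.9% for ETS and 15.7% against 6.3% for YY1. In all, 22 genes held an NRF1 or ETS core upstream, and 3 of them held both. The reference table covers 27025 genes, whether or not they were expressed in these cultures, and the shares were not compared with expressed genes alone. A match is a description of the letters, not evidence of binding. The NRF1 and ETS cores do not overlap each other as letters in the sequences shown.

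The sequences below are the 250 bases upstream of the RefSeq start, written 5′ to 3′ on the strand of the gene. For each complex they show the gene of highest level per length whose upstream bases hold an NRF1 or ETS core, with the core in capitals, so that its place can be compared between complexes. The last is that of Ndufc1, the gene of smallest p in the comparison of KO with WT, which holds none of the 3 cores there. The windows are Ndufb7 of complex I at chr8:83566508-83566757 (plus strand), Sdhb of complex II at chr4:140961021-140961270 (plus), Uqcrh of complex III at chr4:116075071-116075320 (minus), Cox6a1 of complex IV at chr5:115348959-115349208 (minus), Atp5h of complex V at chr11:115419920-115420169 (minus) and Ndufc1 of complex I at chr3:51408956-51409205 (minus).
Ndufb7: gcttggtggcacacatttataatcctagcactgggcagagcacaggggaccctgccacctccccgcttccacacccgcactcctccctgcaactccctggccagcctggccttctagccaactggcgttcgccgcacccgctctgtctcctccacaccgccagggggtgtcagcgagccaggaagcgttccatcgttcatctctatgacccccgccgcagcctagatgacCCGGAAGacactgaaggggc
Sdhb: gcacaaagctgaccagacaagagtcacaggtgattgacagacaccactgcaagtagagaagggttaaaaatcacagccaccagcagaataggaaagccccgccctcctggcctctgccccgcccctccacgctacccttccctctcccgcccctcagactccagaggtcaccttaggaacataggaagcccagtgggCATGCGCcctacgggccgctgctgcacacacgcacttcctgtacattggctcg
Uqcrh: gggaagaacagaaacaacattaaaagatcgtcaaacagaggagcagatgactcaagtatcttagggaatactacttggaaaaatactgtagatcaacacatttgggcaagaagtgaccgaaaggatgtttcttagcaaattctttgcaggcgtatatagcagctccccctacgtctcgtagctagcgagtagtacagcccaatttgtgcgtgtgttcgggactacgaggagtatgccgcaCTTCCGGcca
Cox6a1: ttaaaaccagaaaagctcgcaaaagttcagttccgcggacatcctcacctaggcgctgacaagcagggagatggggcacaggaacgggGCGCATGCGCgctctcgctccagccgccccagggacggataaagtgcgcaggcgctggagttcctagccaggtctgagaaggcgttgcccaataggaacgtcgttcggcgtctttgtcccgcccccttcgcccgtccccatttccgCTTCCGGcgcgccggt
Atp5h: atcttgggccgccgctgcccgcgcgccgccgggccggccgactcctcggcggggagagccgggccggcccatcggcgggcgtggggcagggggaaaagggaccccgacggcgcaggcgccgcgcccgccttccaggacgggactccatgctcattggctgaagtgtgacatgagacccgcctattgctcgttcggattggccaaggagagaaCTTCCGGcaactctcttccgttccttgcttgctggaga
Ndufc1: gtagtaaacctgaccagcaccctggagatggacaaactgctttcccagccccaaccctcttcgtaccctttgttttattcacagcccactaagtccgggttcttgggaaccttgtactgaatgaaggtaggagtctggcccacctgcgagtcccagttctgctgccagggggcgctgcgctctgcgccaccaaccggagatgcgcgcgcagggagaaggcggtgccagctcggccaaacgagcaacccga

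The ETS core lay close to the RefSeq start in all 4 of these promoters that hold it. It lay 20 to 14 bases before that start in Ndufb7, 10 to 4 in Uqcrh, 16 to 10 in Cox6a1 and 38 to 32 in Atp5h. In Sdhb the NRF1 core lay on the reverse strand, 53 to 47 bases before the start. Cox6a1 held a palindromic NRF1 site in which 1 core on each strand overlaps the other, from 162 to 153 bases before the start. GENCODE M21 starts the gene further upstream for Ndufb7 (83566671), Sdhb (140961203), Cox6a1 (115348981) and Atp5h (115419962). By that annotation the NRF1 core of Sdhb and the ETS cores of Ndufb7, Cox6a1 and Atp5h lie inside the gene.

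Summed over the 94 genes, transcripts of oxidative phosphorylation reached 14736, 12698 and 10420 CPM in KO libraries, against 9834, 12248 and 9669.8 CPM in WT libraries. KO replicate 1 was the highest library and KO replicate 2 the next, but the groups overlapped, since WT replicate 2 exceeded KO replicate 3. The means were 12618 ± 2159 CPM in KO and 10584 ± 1444 CPM in WT (SD, n = 3 each), a difference of 0.25 in log2 CPM that is close to the pooled SD of 0.22 within a genotype. Relative to library totals scaled by the TMM factors, the genes made up 1.04% to 1.47% in KO libraries and 0.967% to 1.23% in WT libraries. The 3 most abundant by CPM, Atp5b, Atp5a1 and Cox4i1, gave 21.4% of the sum, and without them the difference was 0.24.

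No gene of the set differed between KO and WT after adjustment over all genes. In edgeR's quasi-likelihood test 0 of the 89 tested genes had an adjusted p under 0.05, where 0% of all 14131 genes did, and the lowest adjusted p in the set was 0.713, for Ndufc1. DESeq2 called 0 of the 86 for which it gave an adjusted p. Over the 11664 genes with an adjusted p it called 14 higher in KO (0.12%) and 62 lower (0.532%). With limma voom 0 of the 89 were called, and 1 higher and 3 lower among all 14131 genes. At an unadjusted p under 0.05, 3 of the 89 were higher in KO, where 2.34% of all genes were, and 0 were lower, where 3.83% of all genes were. The fold changes nevertheless lay mostly on one side. A log2 fold change above 0 was found for 84 of the 89, where 51.9% of all genes had one, and the median was 0.26, against 0.01 over all genes. The values ran from -0.31 for Ndufaf4 to 0.66 for Ndufc1, with 62 genes at 0.2 or more and 11 at 0.4 or more. Standard errors were between 0.13 and 0.58, with a median of 0.19, and exceeded the size of the fold change for 23 genes. These genes varied together between libraries, so the 84 are not independent measurements. Without KO replicate 1 the median was 0.13 and 74 genes were above 0. Without KO replicate 3 the median was 0.38, and without WT replicate 2 it was 0.36. The count of genes higher in KO at an unadjusted p under 0.05 moved with the method and with the library left out. With all 6 libraries it was 35 in limma voom (7.54% of all genes) and 12 with a block for the replicate number (4.01%). With total counts it was 1 (1.27%). It was 0 without KO replicate 1 (2.14% of all genes in that fit), 2 without KO replicate 2 (0.964%) and 43 without KO replicate 3 (6.80%). It was 0 without WT replicate 1 (1.20%), 25 without WT replicate 2 (3.85%) and 0 without WT replicate 3 (1.68%). No gene of the set had an adjusted p under 0.05 in any of the 6 fits with a library left out.

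**Figure D1:**
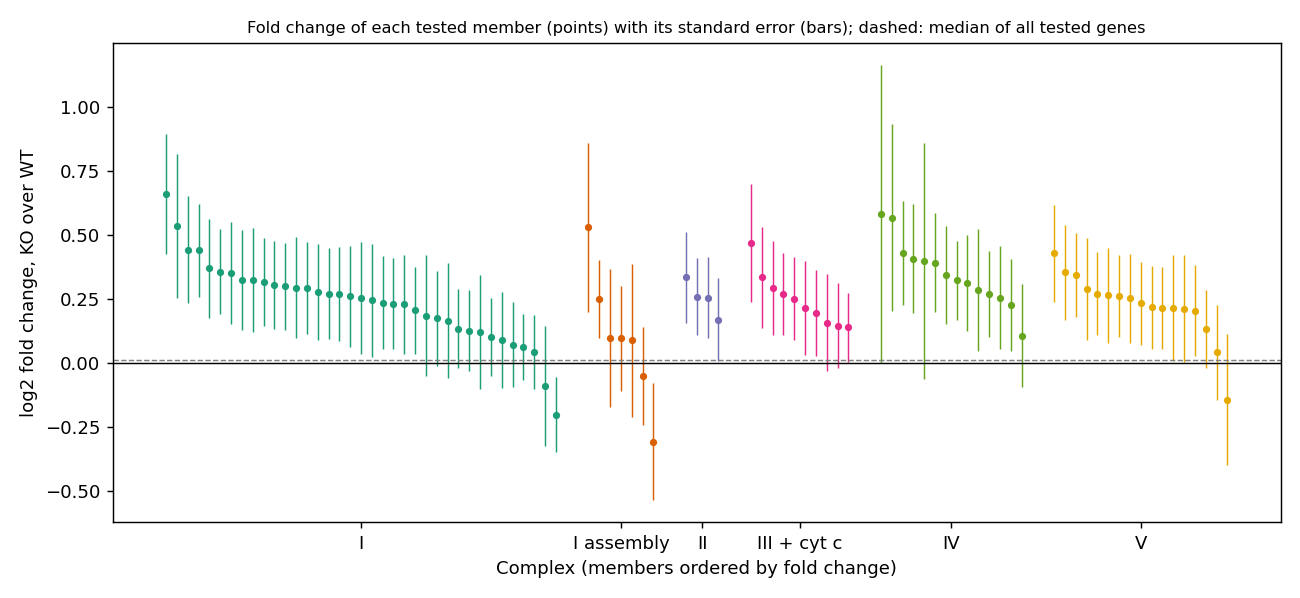
Log2 fold change of KO over WT for each of the 89 tested genes (points) with its standard error (bars), grouped by complex and ordered by fold change within it; the dashed line is the median of all tested genes, 0.01. Complexes II, III and IV lie above 0 throughout, and 5 genes in all lie below 0.

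In complex I, the NADH dehydrogenase, 35 of 37 tested genes had a log2 fold change above 0, with a median of 0.25. Summed CPM was 4285, 3636 and 3032 in KO libraries, against 2886, 3635 and 2788 in WT libraries. KO replicate 2 and WT replicate 2 thus stood level. Ndufc1, a small accessory subunit, stood at 40.8, 29.9 and 23.0 CPM in KO libraries, against 19.0, 22.7 and 17.6 CPM in WT libraries. Every KO library lay above every WT library, by a narrow margin between KO replicate 3 and WT replicate 2. Its mean was 31.2 ± 8.95 CPM in KO and 19.8 ± 2.61 CPM in WT (SD, n = 3 each), and its log2 fold change of 0.66 ± 0.23 (SE) did not pass adjustment (edgeR adjusted p = 0.713, unadjusted p = 0.0183). Leaving out each library in turn moved that fold change between 0.41 without KO replicate 1 and 0.84 without KO replicate 3.

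Ndufb6, an accessory subunit of the membrane arm, stood at 63.9, 46.8 and 41.6 CPM in KO libraries, against 36.0, 37.6 and 38.7 CPM in WT libraries. The 3 WT libraries lay close together and below all KO libraries, and the log2 fold change was 0.44 ± 0.18 (SE; edgeR adjusted p = 0.793). Its exons overlap Smim27 on the opposite strand. Ndufa9, a subunit at the junction of the arms, stood at 176, 161 and 131 CPM in KO libraries, against 117, 142 and 107 CPM in WT libraries. Here WT replicate 2 exceeded KO replicate 3, and the log2 fold change was 0.36 ± 0.17 (SE; edgeR adjusted p = 0.812). Ndufa1, which is needed for assembly of the membrane arm, was the third complex I gene whose libraries did not overlap. It stood at 36.4, 31.9 and 30.1 CPM in KO libraries, against 27.8, 28.2 and 23.1 CPM in WT libraries.

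Ndufab1 went against the rest of complex I. This gene of the mitochondrial acyl carrier protein, a subunit that also serves fatty acid and lipoic acid synthesis, stood at 52.2, 42.2 and 51.6 CPM in KO libraries, against 54.9, 58.8 and 54.3 CPM in WT libraries. All KO libraries lay below all WT libraries, with KO replicate 2 the lowest, but the log2 fold change of -0.20 ± 0.15 (SE) did not pass (edgeR adjusted p = 0.834). It was the only gene of the 89 whose KO libraries all lay below its WT libraries, where 5.87% of all genes did so. In the other direction 6 of the 89 had no overlap, where 5.28% of all genes did: Ndufc1, Ndufb6, Ndufa1, Ndufaf7, Cycs and Cox4i2. The other complex I subunit below 0 was Ndufs5, an accessory subunit, at a log2 fold change of -0.09 ± 0.23 (SE), which was 0.03 without KO replicate 2 and 0.16 without WT replicate 2.

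The 7 assembly factors of complex I summed to 143, 146 and 145 CPM in KO libraries, against 140, 142 and 131 CPM in WT libraries, so that the KO libraries lay closely together and just above the WT ones. Their log2 fold changes had a median of 0.10, with 5 above 0 and 2 below. Ndufaf4 had the lowest of all 89, at 15.8, 24.6 and 29.1 CPM in KO libraries, against 28.2, 27.8 and 30.1 CPM in WT libraries. KO replicates 1 and 2 lay below all WT libraries and KO replicate 3 within their range, and the log2 fold change of -0.31 ± 0.23 (SE; edgeR adjusted p = 0.834) was -0.10 without KO replicate 1. Ndufaf5, a hydroxylase acting in assembly, was highest, at 17.3, 10.4 and 12.8 CPM in KO libraries, against 5.47, 11.2 and 11.4 CPM in WT libraries. WT replicate 1 was its lowest library, and the fold change of 0.53 ± 0.33 (SE) was 0.26 without it.

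Complex II, succinate dehydrogenase, is encoded by 4 nuclear genes only. Sdha, the flavoprotein, stood at 578, 498 and 432 CPM in KO libraries, against 449.5, 499 and 393 CPM in WT libraries. KO replicate 2 and WT replicate 2 were level, and the log2 fold change was 0.17 ± 0.16 (SE). Sdhb, the iron-sulphur subunit whose promoter is shown above, stood at 192, 159.7 and 132 CPM in KO libraries, against 118, 151 and 116 CPM in WT libraries. Only WT replicate 2 lay within the KO range, and the log2 fold change was 0.34 ± 0.18 (SE; edgeR adjusted p = 0.823). The membrane anchors lay between, with log2 fold changes of 0.26 ± 0.16 (SE) for Sdhc and 0.26 ± 0.15 (SE) for Sdhd.

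In complex III and cytochrome c, 10 of 10 genes were above 0, with a median log2 fold change of 0.23. Summed CPM was 1772, 1525 and 1272 in KO libraries, against 1182, 1481 and 1219.8 in WT libraries. Uqcr11, a small subunit, had the highest fold change, at 146, 117 and 83.1 CPM in KO libraries, against 69.3, 105 and 75.7 CPM in WT libraries. Its log2 fold change of 0.47 ± 0.23 (SE) had an edgeR adjusted p of 0.819, and WT replicate 2 lay within the KO range. Among the catalytic subunits, the log2 fold change was 0.29 ± 0.18 (SE) for Cyc1, the cytochrome c1 heme protein, and 0.25 ± 0.16 (SE) for Uqcrfs1, the Rieske iron-sulphur protein.

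Cycs, which encodes the soluble electron carrier cytochrome c, had the lowest fold change of this group. It stood at 137, 128 and 129 CPM in KO libraries, against 107, 127 and 123 CPM in WT libraries. All KO libraries lay above all WT libraries, though KO replicate 2 and WT replicate 2 were nearly level, and the log2 fold change was 0.14 ± 0.13 (SE; edgeR adjusted p = 0.845).

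Complex IV, cytochrome c oxidase, had the highest median of the complexes, 0.33, with 14 of 14 tested genes above 0. Summed CPM was 2646, 2259 and 1750 in KO libraries, against 1642.5, 2138 and 1501 in WT libraries. Cox4i1, the ubiquitous form of the regulatory subunit 4, stood at 794, 645 and 488 CPM in KO libraries, against 454, 601 and 399 CPM in WT libraries. WT replicate 2 again lay within the KO range, and the log2 fold change was 0.41 ± 0.21 (SE; edgeR adjusted p = 0.821). Cox7b, a small subunit, had the lowest fold change of the complex, at 0.11 ± 0.20 (SE), and was below 0 without KO replicate 1 (-0.06). Ndufa4, counted with complex I by its symbol but known as a subunit of complex IV, stood at 184, 134 and 111 CPM in KO libraries, against 87.3, 126 and 103 CPM in WT libraries. Its log2 fold change was 0.44 ± 0.21 (SE; edgeR adjusted p = 0.819), and WT replicate 2 exceeded KO replicate 3.

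In complex V, 16 of 17 genes were above 0, with a median log2 fold change of 0.23. Summed CPM was 4807, 4200.2 and 3429 in KO libraries, against 3198, 3958 and 3303 in WT libraries. Atp5b, the catalytic beta chain, stood at 1366, 1248 and 1002 CPM in KO libraries, against 938, 1109 and 949.6 CPM in WT libraries. WT replicate 2 lay between KO replicates 2 and 3, and the log2 fold change was 0.27 ± 0.16 (SE; edgeR adjusted p = 0.826). Atp5a1, the alpha chain, had a log2 fold change of 0.20 ± 0.18 (SE). Atp5j2, a subunit of the membrane part, had the highest fold change, at 174, 155 and 124 CPM in KO libraries, against 91.1, 139 and 107 CPM in WT libraries. Its log2 fold change was 0.43 ± 0.19 (SE; edgeR adjusted p = 0.803), with WT replicate 2 above KO replicate 3. Atp5s, named for coupling factor B and not a core subunit, was the 1 gene of the group below 0, at -0.14 ± 0.26 (SE), and was at 0.02 without WT replicate 1.

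Without KO replicate 1, the medians of the 5 complexes lay between 0.11 in complexes III and V and 0.20 in complex IV. Without KO replicate 3 they lay between 0.34 in complex III and 0.49 in complex IV.

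**Figure D2:**
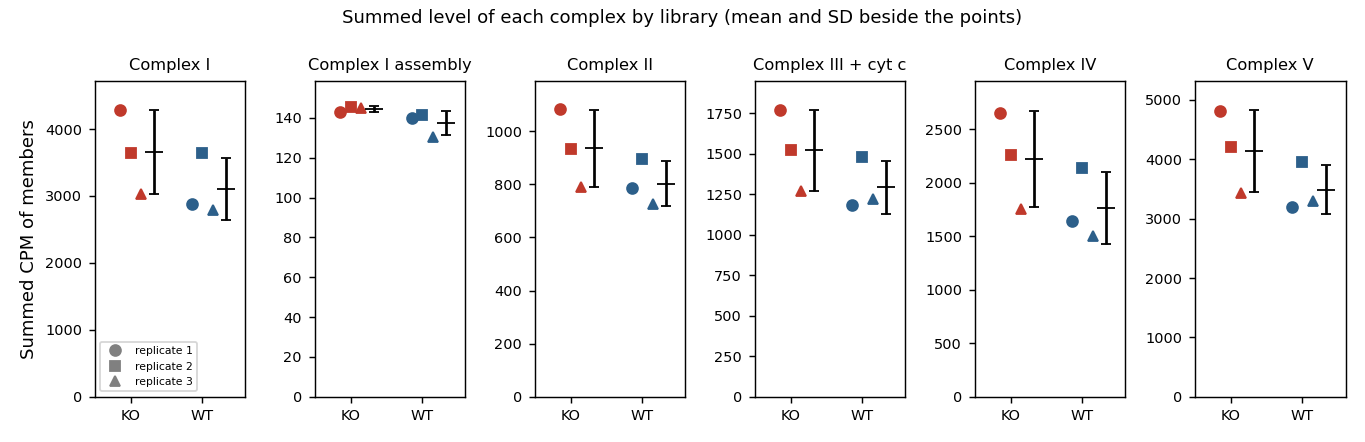
Summed CPM of the genes of each complex in every library, KO left of WT, with the mean and SD of 3 libraries beside the points; each vertical axis starts at 0. In each of the 5 complexes KO replicate 1 is highest and WT replicate 2 exceeds KO replicate 3, and the assembly factors stay between 131 and 146 CPM.

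The order of the libraries was nearly the same from gene to gene. KO replicate 1 was the highest library for 73 of the 89 genes, KO replicate 2 for 7, KO replicate 3 for 3 and WT replicate 2 for 4. WT replicate 3 was lowest for 41 and WT replicate 1 for 36. WT replicate 2 exceeded KO replicate 3 for 76 of the 89. KO replicate 1 exceeded every WT library for 81 genes and KO replicate 2 for 50, but KO replicate 3 for 10. As a median over the genes, log2 CPM stood 0.36 and 0.13 above the mean of the 6 libraries in KO replicates 1 and 2 and at -0.13 in KO replicate 3, against -0.22, 0.12 and -0.24 in WT replicates 1, 2 and 3. The spread within a genotype was therefore of the size of the difference between genotypes.

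**Figure D3:**
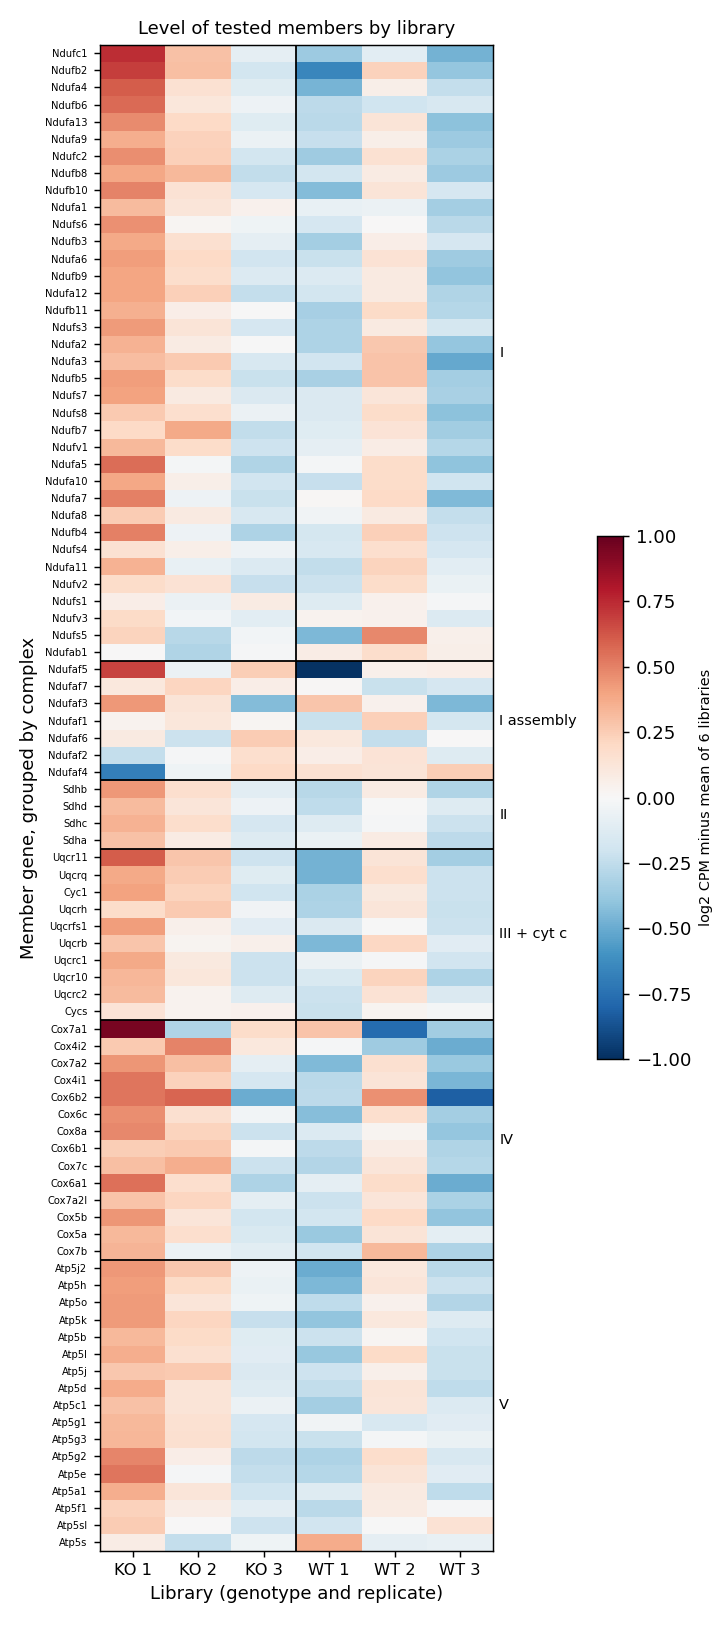
Deviation of log2 CPM from the mean of the 6 libraries for the tested genes (1 line of cells per gene, grouped by complex, without 1 gene that is not reported by name), with the KO libraries left of the WT libraries; red is above and blue below the gene's mean. Over all 89 tested genes, KO replicate 1 is the highest library for 73, and WT replicates 1 and 3 are lowest for 36 and 41.

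Across the 6 libraries, the levels of these genes moved together. The median Pearson correlation of log2 CPM over the 3916 pairs of genes was 0.83, against 0.01 for pairs of a member and any other tested gene; the points share the same 6 libraries and their depth. The correlation is given as a description. Atp5d, a subunit of the ATP synthase stalk, had the highest median correlation with the rest, 0.94, and 72 genes had one above 0.7. It was below 0 for 5 genes: Ndufaf4 (-0.80), Ndufaf2 (-0.38), Ndufaf6 (-0.33), Atp5s (-0.27) and Ndufab1 (-0.25). The other 4 assembly factors of complex I had positive values, from 0.36 for Ndufaf7 to 0.63 for Ndufaf1.

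Within a complex, proportions varied less than levels. The SD of log2 CPM over the 6 libraries had a median of 0.27, whereas that of the log2 share of the complex's summed CPM had a median of 0.11. The share had the smaller spread for 82 of the 89 genes. Each gene is part of its own complex's sum, and a shift shared by the genes of a complex cancels in a share. A smaller spread therefore follows in part from the measure itself. Among the assembly factors of complex I the median SD was 0.193 for the level and 0.203 for the share, with the smaller spread in the share for 5 of 7. The 7 exceptions were Ndufab1, Ndufs1, Ndufv3, Cycs, Atp5s, Ndufaf4 and Ndufaf6. Ndufab1 made up 1.36 ± 0.30% of complex I CPM in KO and 1.82 ± 0.18% in WT (SD, n = 3 each).

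Levels between genes were compared per length, as CPM per kilobase of the principal mRNA in GENCODE M21. Cox4i1 was the most abundant, at 862 ± 205 CPM per kb in KO and 650.4 ± 140 CPM per kb in WT (SD, n = 3 each). Atp5b followed at 629 ± 96.8 CPM per kb in KO and 521 ± 49.9 CPM per kb in WT. The highest of complex I was Ndufc2, a membrane-arm subunit, at 269.8 ± 58.6 CPM per kb in KO and 211 ± 43.3 CPM per kb in WT. In complex III it was Uqcrh, the hinge protein, at 259 ± 27.1 CPM per kb in KO and 215 ± 34.8 CPM per kb in WT, which did not differ from Uqcr11 beyond their spread, at 259 ± 71.1 CPM per kb in KO and 187 ± 42.6 CPM per kb in WT. In complex II, Sdha stood at 173 ± 25.2 CPM per kb in KO and 154 ± 18.2 CPM per kb in WT. Sdhb stood at 141 ± 26.5 CPM per kb in KO and 112 ± 17.2 CPM per kb in WT, Sdhd at 86.6 ± 11.0 CPM per kb in KO and 72.3 ± 6.36 CPM per kb in WT, and Sdhc at 52.0 ± 9.14 CPM per kb in KO and 43.6 ± 3.10 CPM per kb in WT. Cycs was lowest of its group at 42.0 ± 1.67 CPM per kb in KO and 38.2 ± 3.38 CPM per kb in WT. These levels depend on the transcript chosen for the length, most for genes with a long 3′ end such as Cycs and Ndufab1.

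**Figure D4:**
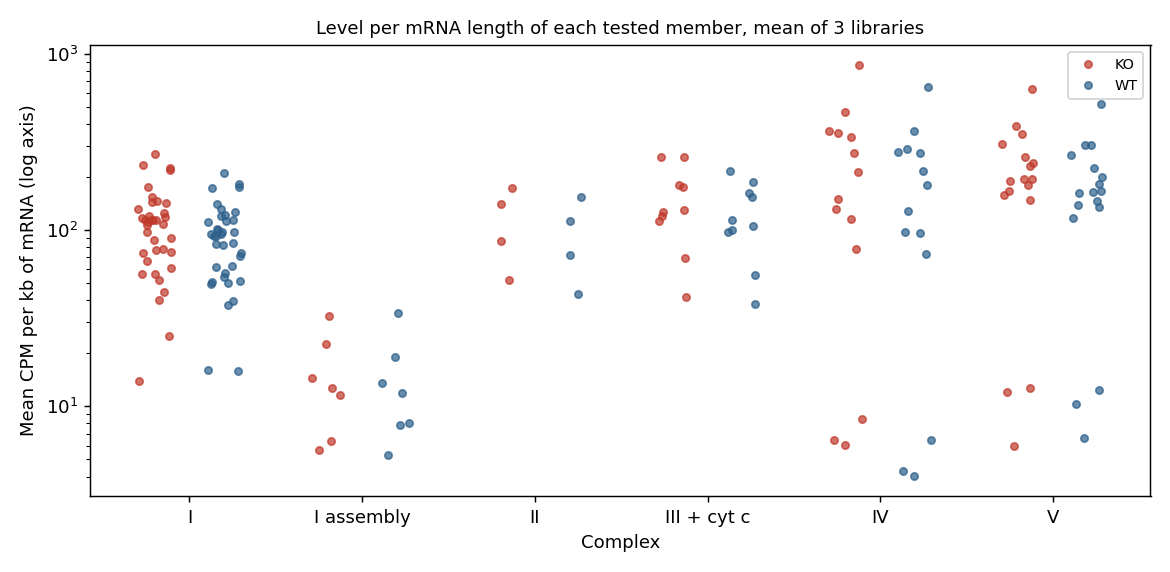
Mean CPM per kb of mRNA (log axis) of each tested gene over 3 libraries, KO left of WT in each complex. The assembly factors and a few isoforms, such as Cox4i2 and Cox7a1, lie below most subunits.

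Several complex IV subunits exist as a ubiquitous form and a form known from heart and skeletal muscle, lung or testis, and the ubiquitous forms prevailed in every library. Cox4i2, the form of subunit 4 known from lung and from oxygen sensing, stood at 4.56, 5.34 and 4.09 CPM in KO libraries, against 3.77, 2.96 and 2.69 CPM in WT libraries. The KO libraries all lay above the WT libraries, and the log2 fold change of 0.57 ± 0.37 (SE) did not pass (edgeR adjusted p = 0.829). As a share of Cox4i1 and Cox4i2 per length, Cox4i2 was 0.759 ± 0.15% in KO and 0.678 ± 0.17% in WT (SD, n = 3 each; exact two-sided permutation p = 0.6). Cox6b2, known from testis, made up 2.97 ± 0.81% of its pair in KO and 2.80 ± 0.83% in WT (exact permutation p = 0.9). Cox7a1, of heart and skeletal muscle, made up 2.38 ± 0.86% of its family in KO and 2.15 ± 1.03% in WT (exact permutation p = 0.8).

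The share that came nearest to separating the genotypes was that of Cox7a2l, a relative of the Cox7a subunits that joins complexes III and IV into supercomplexes. It made up 44.3, 46.4 and 47.2% of the Cox7a family per length in KO libraries, against 50.8, 47.4 and 48.4% in WT libraries. All KO shares lay below all WT shares, by a narrow margin, with an exact two-sided permutation p of 0.1, the smallest that 3 against 3 libraries allow, and a Benjamini-Hochberg adjusted p of 1 over 10 shares. The level of Cox7a2l itself had a log2 fold change of 0.27 ± 0.17 (SE), below the 0.43 ± 0.20 (SE) of Cox7a2. The 3 genes for the c-ring of ATP synthase, whose mature proteins are identical, kept their proportions. Atp5g1 made up 2.09 ± 0.10% in KO and 2.10 ± 0.33% in WT, Atp5g2 44.5 ± 2.44% in KO and 44.6 ± 2.89% in WT, and Atp5g3 53.4 ± 2.34% in KO and 53.3 ± 2.61% in WT. The listed Atp5g1 transcript is 4715 bases long, against 441 for Atp5g2 and 714 for Atp5g3, so its share per length would be larger with a shorter transcript.

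The 5 genes that did not pass the low-count filter had few counts or none. Cox8c, a testis form, had 0 counts in all 6 libraries. Cox6a2, of heart and skeletal muscle, had 2, 1 and 20 counts in KO libraries, against 0, 0 and 7 in WT libraries. Cox7b2, of testis, had 1, 3 and 3 counts in KO libraries, against 10, 1 and 7 in WT libraries. Cox8b, a muscle form, had 0, 0 and 8 counts in KO libraries, against 10, 0 and 0 in WT libraries. Ndufa4l2, known as a hypoxia-induced relative of Ndufa4, had 1, 8 and 6 counts in KO libraries, against 19, 4 and 4 in WT libraries, and its exons overlap Shmt2 on the opposite strand. The highest sum over the 6 libraries was 42 counts, and no difference could be read at this depth.

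Genes that serve the same complexes were examined as fixed lists. Of 40 assembly factors of complexes I to V outside the set, 0 passed in either direction. At an unadjusted p under 0.05, 2 were higher in KO, where 2.34% of all genes were, and 0 were lower. A log2 fold change above 0 was found for 29, where 51.9% of all genes had one, and the median was 0.14. Of 15 enzymes of the tricarboxylic acid cycle and pyruvate dehydrogenase, which supply the electrons, 0 passed, 14 were above 0 and the median was 0.16. Their summed level was 3568, 3241 and 2886 CPM in KO libraries, against 2842, 3066 and 2730.1 CPM in WT libraries, which repeats the order seen for the respiratory chain in KO libraries and the place of WT replicate 2 above KO replicate 3. Of 13 regulators of mitochondrial biogenesis, 0 passed, 5 were above 0 and the median was -0.09. Ppargc1a, the coactivator of this programme, stood at 60.3 ± 13.0 CPM in KO and 66.8 ± 13.8 CPM in WT (SD, n = 3 each). Nrf1, whose motif core was counted above, stood at 35.9 ± 3.98 CPM in KO and 34.7 ± 5.25 CPM in WT, and Gabpa, the DNA-binding chain of GABP, at 47.5 ± 11.5 CPM in KO and 52.1 ± 14.2 CPM in WT. Gabpb1, its partner chain, stood at 11.6, 6.73 and 9.08 CPM in KO libraries, against 13.5, 13.3 and 13.9 CPM in WT libraries. All KO libraries lay below the WT libraries, with a log2 fold change of -0.57 ± 0.26 (SE; edgeR adjusted p = 0.803). It was the only 1 of the 13 without overlap, where 5.87% of all genes lay lower in KO without overlap. Gabpb1 was the lowest of the 13, whose values ran up to 0.34.

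The order of the libraries in these genes was shared by other measures. Genes of cytosolic ribosomal proteins summed to 20315, 18589 and 13877 CPM in KO libraries, against 12299, 17629.8 and 12368.5 CPM in WT libraries. The same 3 libraries were high, WT replicate 2 among them. A log2 fold change above 0 was found for 70 of 70, where 51.9% of all genes had one, with a median of 0.31. None passed adjustment, and 2 were higher in KO at an unadjusted p under 0.05, where 2.34% of all genes were. The median correlation between a respiratory gene and a ribosomal protein gene over the 6 libraries was 0.89.

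Libraries also differed in a trend of expression with transcript length and GC content over all genes. The Spearman correlation of a library's deviation with exonic length was -0.34, -0.24 and 0.23 in KO replicates 1, 2 and 3, against 0.26, -0.20 and 0.26 in WT replicates 1, 2 and 3. With GC content it was 0.39, 0.36 and -0.39 in KO libraries, against -0.16, 0.06 and -0.33 in WT libraries. The tested oxidative phosphorylation genes are short, with a median exonic length of 1789 bases against 4511 over all genes, while their median GC content of 50% was near the 49.8% of all genes. The log2 fold change correlated with length at a Spearman rho of -0.35 over the 89 genes and -0.25 over all genes. With GC content rho was 0.15 over the 89 genes and 0.29 over all genes.

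The comparison was repeated among libraries on 1 side of that trend. In the 2 KO libraries and 1 WT library of positive GC correlation, the difference in the log2 sum was 0.16, and 75 of the 89 genes were above 0. In the 1 KO library and 2 WT libraries of negative correlation, it was 0.10 and 68 were above 0. Both are smaller than the 0.25 over all libraries, and neither allows a test of the difference with so few libraries. With the trend in GC and length removed from each library, the median log2 fold change of the 89 was 0.17 with 77 above 0, and with the side of that trend fitted as a batch it was 0.13 with 77 above 0. The part that ribosomal abundance, transcript length and GC content have in the result was not tested beyond these values.

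**Figure D5:**
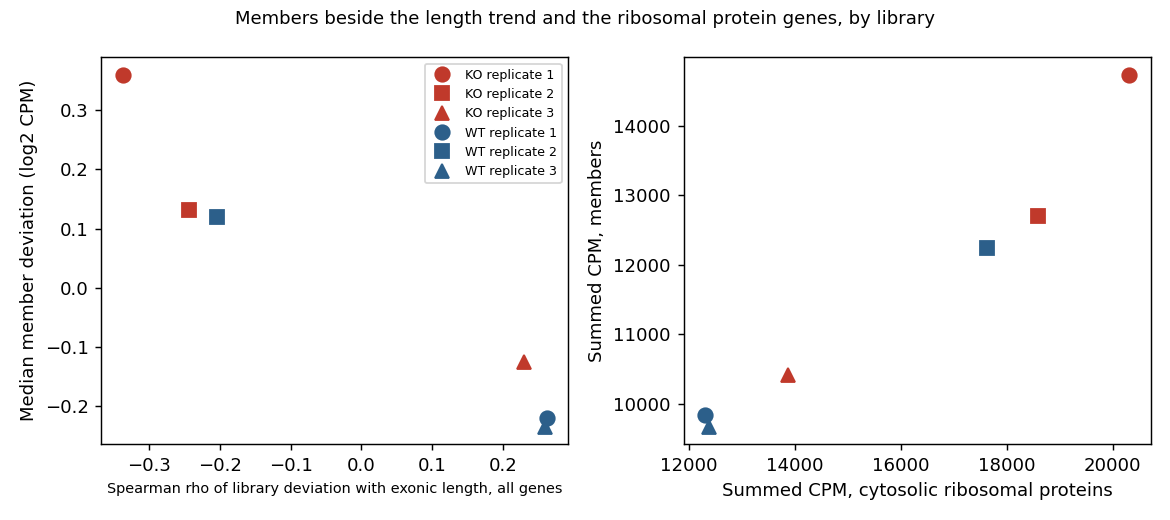
Left, the median deviation of the 89 genes in log2 CPM in each library against the Spearman correlation of that library's deviation with exonic length over all genes; right, summed CPM of the 94 genes against that of 70 cytosolic ribosomal protein genes. In both panels KO replicates 1 and 2 and WT replicate 2 stand apart from KO replicate 3 and WT replicates 1 and 3.

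Exons of 30 of the 89 tested genes overlap another annotated gene, among them Cox4i1 (Emc8), Atp5a1 (Haus1), Ndufa9 (1700018A23Rik), Ndufab1 (Gm44986) and Ndufs1 (Eef1b2), so their counts are uncertain because the use of strand in counting is not given. Many genes of this pathway also have processed pseudogene copies elsewhere in the genome, and reads shared with them could have been split or dropped.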

How the data were processed

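Poly-A RNA of 6 bulk libraries, 3 KO and 3 WT, was measured. Estimated counts for each gene symbol were deposited, unnormalized as far as the values show. The submitters' processing notes name TopHat2, featureCounts and the builds GRCm38 and mm9, but no versions or roles. Annotation, strand use and the handling of ambiguous reads: not given in the sources used here. In each library 0.711% to 0.847% of values were more than 0.01 away from an integer, and every value was rounded before testing. Symbols were matched to GENCODE M21 on GRCm38 for 23962 of 24318 (98.5%), which gave lengths, GC content and coordinates.

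Genes passing filterByExpr (14131) were tested by quasi-likelihood in edgeR 4.0.16 (R 4.3.3) with TMM factors, robust dispersion and Benjamini-Hochberg adjustment over all of them at 0.05. Levels are CPM with the SD over 3 libraries, and log2 CPM used a prior count of 2. Fold changes are KO over WT with SE. Shares of isoforms were compared by exact permutation of the libraries. CPM per kb used the principal transcript by APPRIS level, support level and lowest number. The test was also run on simulated counts, drawn independently for each gene and without a length or GC trend between libraries. That run cannot show how the test behaves where such a trend is present. Precision rests on 3 libraries per group. Replicates differed beyond sampling noise (chi-square per degree of freedom 22.3 to 89.1 over genes whose counts sum to 10 or more), so none was a duplicate. Mitochondrially encoded genes were not analysed here, and 1 gene of the set enters all counts, sums and medians but is not reported here by name.

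The genes and lists, and the alternatives on GC content and length, were chosen with earlier results of these data known. Genes were named by rule: in each complex the highest level per length and the highest and lowest fold change, all of complex II, the catalytic subunits, the isoform families, the 5 smallest p-values, the extremes of the assembly factors and the untested genes. Ndufa1, Ndufs5, Atp5d, Ndufaf7, Ndufaf2, Ndufaf6, Ndufv3, Ndufs1, Gabpb1 and Ppargc1a were named after their values were seen, and so were Nrf1, Gabpa, Gfap, S100b and Ndufaf1. The alternatives were RLE factors, total counts, no low-count filter, at least 1 CPM in 3 libraries, DESeq2 1.42.0, limma 3.58.1 voom with quality weights, a block for the replicate number, removal of the GC and length trend by natural splines (4 degrees of freedom), a batch term for the sign of a library's GC trend, and leaving out each library. The mitochondrial genes Dmac1 and Twnk of the fixed lists were not matched by symbol.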

Additional observations from a re-analysis of the deposited data

How the results depend on the processing

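In all 15 alternative fits 0 of the oxidative phosphorylation genes with an adjusted p passed (86 had one in DESeq2), and the lowest adjusted p was 0.105, for Ndufc1 without KO replicate 3. Their median log2 fold change lay lowest, at 0.13, when KO replicate 1 was left out and highest, at 0.38, when KO replicate 3 was, and between 74 and 85 of them were above 0; total counts gave 0.18 and 80. The difference in summed log2 CPM lay between 0.10 and 0.38. The lowest summed count of a tested gene of the set was 227.

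The median of the complex I assembly factors, 0.10, was 0.019 with total counts, 0.18 with limma voom, -0.051 with the GC and length trend removed, 0.03 with a batch term for the sign of the GC trend, and 0.032 to 0.163 when each library was left out. Cox7b reversed to -0.014 with that batch term, and ran from -0.059 without KO replicate 1 to 0.313 without WT replicate 2. Atp5s reversed to 0.004 with the GC and length trend removed, and ran from -0.233 without WT replicate 2 to 0.023 without WT replicate 1. Cox6a1 reversed to -0.019 with that trend removed, and Atp5g2 ran from -0.015 without KO replicate 1 to 0.376 without KO replicate 3. Ndufs5 ran from -0.295 without WT replicate 1 to 0.155 without WT replicate 2. In each case the cause was not tested. Fold changes of the 35 tested genes that the naming rule takes, and of Ndufs5 and Gabpb1, gave 552 alternative values. Of these, 536 kept direction and side of the threshold, 9 reversed and 7 newly passed, all of Adgrb1.

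Over all genes, 0 were called higher and 0 lower in KO. Without a low-count filter the counts were 2 and 4, with DESeq2 14 and 62, with limma voom 1 and 3, with the GC and length trend removed 3 and 12, and 14 and 74 with the batch term. Leaving out each library gave 0 to 4 higher and 0 to 27 lower, with 4 and 27 without KO replicate 3. Adgrb1 passed in 7 of the 15 alternative fits, with an adjusted p of 1.82e-09 with DESeq2.

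With the replicate number as a block, the counts over all genes were 7 higher and 37 lower, and 0 of the oxidative phosphorylation genes passed, with a median of 0.25. The main fit used no block because the labels do not say that the numbers pair the libraries. The correlation of deviations between libraries of the same number was 0.087, 0.15 and 0.284. Between libraries of different numbers it was 0.087 for KO replicate 1 with WT replicate 2, and from -0.21 to -0.044 for the others. Deviations were taken from the mean of the 3 libraries of a genotype, so these correlations cannot all lie above 0. Whether the numbers mark a pairing cannot be settled from these values.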
